A study of Saccharomyces cerevisiae with 18 samples.

Results

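In budding yeast kept in glucose, intron reads rose between 4 and 8 h in both of 2 strains. Each strain had a different spliceosome gene under a promoter that glucose shuts off. On a log2 scale the rise was larger in the Snu114 strain for 139 introns, whereas in percentage points it was larger for 5 and smaller for 35. Changes of gene reads differed between the strains for 1 gene by limma, GSC2, for 2 by edgeR and for 162 by DESeq2. The comparison is the change from 4 to 8 h in the Snu114 strain minus the same change in the Dib1 strain. It was chosen by design and not by any measured value, and it uses the 12 glucose libraries among the 18 of the series. The 6 galactose libraries were not used. In the Dib1 strain the GAL1 promoter, which is shut off in glucose, drives DIB1 (YPR082C), and in the Snu114 strain it drives SNU114. Each strain gave 3 libraries after 4 h in YPD, a rich glucose medium, and 3 after 8 h. The 4 groups are named here Dib1-4h, Dib1-8h, Snu114-4h and Snu114-8h. Per the labels, both strains are Mat alpha in the BY4742 background and share his3Δ1, leu2Δ0, met15Δ0 and ura3Δ0. The Dib1 strain carries LYS2, and the Snu114 strain carries lys2Δ0. What each group models is loss of expression from a shut-off promoter, with no strain in which the driven gene stays on in glucose among the 12 libraries. Nothing in the labels tells if replicates came from different cultures, so the spread behind each p-value may be technical.

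The spliceosome removes introns from pre-mRNA by joining the flanking exons. Snu114, a GTPase in the U5 snRNP, helps control the RNA rearrangements of activation, and Dib1 is a small protein of the U4/U6.U5 tri-snRNP that leaves the complex as it becomes active. Most budding yeast genes lack introns, but many genes for ribosomal proteins have one, so reads over introns report on splicing mainly at highly transcribed genes. When splicing is blocked, unspliced precursor accumulates to an extent set by how fast each host is transcribed and how fast its precursor is degraded.

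The labels were checked against the data before the results. DIB1 was at 244 to 283 normalised counts in the 6 Dib1-strain libraries, against means of 980 in Snu114-4h and 1065 in Snu114-8h. SNU114 was at 1130 to 1501 in the 6 Snu114-strain libraries, against means of 3057 in Dib1-4h and 3282 in Dib1-8h. Reads of both driven genes thus remained, and protein was not measured. Neither driven gene changed beyond the threshold from 4 to 8 h in its own strain (DIB1 log2 change 0.07, SNU114 0.13, limma adjusted p = 0.755 and 0.785). Normalised counts are reads divided by 1 size factor per library, and the factors were set separately in each strain's table, so levels are on slightly different scales in the strains while changes within a strain are not. The summed level of the 8 a-specific marker genes was 60080 to 74020 in the Dib1 strain and 787 to 1006 in the Snu114 strain. The 6 alpha-specific genes summed to 1445 to 3156 and to 99790 to 125611. HMLALPHA1 was at 0 in both strains, and HMLALPHA2 was at 0 in the Dib1 strain and at most 2.29 in the Snu114 strain, so these 2 genes do not separate them. By the summed levels the Dib1 strain showed the marker pattern of a cells, against its label. LYS2, which makes an enzyme of lysine synthesis, was at 3049 to 3560 in the Dib1 strain and at 0 to 1.07 in the Snu114 strain, as labelled. The driven gene, the mating type and LYS2 cannot be told apart in any difference between these strains.

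Depth was 17065989 to 58615022 gene reads and 104306 to 1536697 intron reads per library. Over 5806 genes, replicate 1 of Dib1-4h and replicate 3 of Snu114-8h lay furthest from their group means, with a standard deviation of 0.40 and 0.38 on the log2 scale against 0.14 to 0.31 in the other 10. Those 2 libraries are called here the libraries that stand apart. Results that rest on them are given with and without them, an alternative added after seeing the data.

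The splice sites of the introns at both ends of the called strain difference are shown first, with ACT1, the intron most used to study splicing in this organism. Each line gives the first 20 bases of the intron, with the 6-base 5′ splice site in capitals, and then the stretch from just before the branch site to the intron's last base, with the branch site TACTAAC in capitals. All are read 5′ to 3′ from the R64 genome (RefSeq), the same assembly as sacCer3.

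The 4 introns with the largest difference were those of MAF1, CGI121, RPS4B and TEF4.
MAF1 5′ end, chrIV:458078-458097, minus strand: GTATGTtatcactctaaaac
MAF1 3′ end, chrIV:458018-458063, minus strand: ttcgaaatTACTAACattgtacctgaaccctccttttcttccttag
CGI121 5′ end, chrXIII:206098-206117, plus strand: GTATGTtttaataataaatt
CGI121 3′ end, chrXIII:206149-206203, plus strand: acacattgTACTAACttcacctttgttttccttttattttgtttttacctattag
RPS4B 5′ end, chrVIII:505497-505516, minus strand: GTATGTtgatttccacctaa
RPS4B 3′ end, chrVIII:505248-505302, minus strand: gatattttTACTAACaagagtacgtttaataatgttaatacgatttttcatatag
TEF4 5′ end, chrXI:283096-283115, plus strand: GTATGTtccatattttattt
TEF4 3′ end, chrXI:283359-283421, plus strand: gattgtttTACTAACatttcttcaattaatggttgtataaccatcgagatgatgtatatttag

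At the other end stood HMRA1, with 2 introns and the only lower call, then RPL20B, RPS18A and RPS24B, whose differences were the smallest of the higher calls.
HMRA1 intron 1, 5′ end, chrIII:293940-293959, plus strand: GTATGTtttcatttcaagga
HMRA1 intron 2, 5′ end, chrIII:294240-294259, plus strand: GTATGTaatatgagaatcaa
RPL20B 5′ end, chrXV:901174-901193, minus strand: GTATGTaatagaatgtattg
RPL20B 3′ end, chrXV:900768-900818, minus strand: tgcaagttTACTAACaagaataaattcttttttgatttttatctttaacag
RPS18A 5′ end, chrIV:1359970-1359989, plus strand: GTATGTttattattactagt
RPS24B 5′ end, chrIX:232347-232366, minus strand: GTATGTcgaacttgtactga
ACT1 5′ end, chrVI:54667-54686, minus strand: GTATGTtctagcgcttgcac
ACT1 3′ end, chrVI:54378-54434, minus strand: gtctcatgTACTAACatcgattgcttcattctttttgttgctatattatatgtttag

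The introns of YRA1 and RPS14B are printed because their sites depart from those letters and their changes in the strains were close. They were chosen after their values were seen.
RPS14B 5′ end, chrX:73797-73816, plus strand: GTACGTgaaaggggtgatat
YRA1 5′ end, chrIV:1236843-1236862, plus strand: GTATGTtaatacgtgaaatg
YRA1 3′ end, last 60 bases, chrIV:1237549-1237608, plus strand: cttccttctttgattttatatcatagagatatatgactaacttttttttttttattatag
Among 311 introns annotated between coding exons of the counted hosts, 65.9% began with GTATGT and 74.3% held TACTAAC anywhere on their own strand. Among the 255 introns compared by call below, the shares were 74.1% and 82.0%. The introns at both ends of the called differences showed the same 2 motifs, and YRA1 held no TACTAAC. Apart from HMRA1, the introns at both of these ends were called higher in the Snu114 strain. The lowest introns of the full ranking after HMRA1 were not called and are not printed, so their sites are not compared here.

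The total intron share, the sum of intron reads relative to the sum of gene reads in a library, was higher at 8 h in both strains, from different starting points. It was 1.97%, 1.60% and 1.74% in replicates 1 to 3 of Dib1-4h and 2.62%, 2.53% and 2.57% in Dib1-8h. Snu114-4h had 0.510%, 0.554% and 0.541%, and Snu114-8h had 1.36%, 1.45% and 1.65%. The times did not overlap in either strain, and the Snu114 strain at 8 h stayed near or below the Dib1 strain at 4 h. The means for the Dib1 strain were 1.77% ± 0.185 and 2.57% ± 0.0470 and for the Snu114 strain 0.535% ± 0.0225 and 1.49% ± 0.149 (SD, n = 3 each). The gain was 0.804 percentage points in the Dib1 strain and 0.953 in the Snu114 strain, which is 1.46-fold and 2.78-fold. The within-strain test, an exact two-sided permutation of 3 against 3 libraries, gave p = 0.1 in each strain, the smallest it allows. The difference of 0.149 percentage points had p = 0.745, and on the log2 scale the difference of 0.93 had p = 0.14, by an exact two-sided permutation of the times within strains with 400 exchanges. That permutation assumes no change in either strain. Without the 2 libraries that stand apart the difference turned to −0.0324 percentage points, and with the introns of ribosomal protein genes left out it was −0.117. The exact binomial interval (Clopper-Pearson, 95%) of the share of a single library, such as 1.36% to 1.37% in Snu114-8h replicate 1, covers counting error only.

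**Figure D1:**
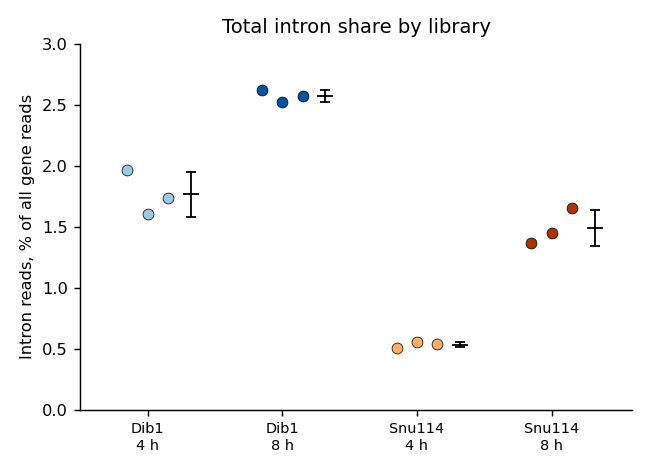
Summed intron reads relative to summed gene reads (vertical axis, percent, from 0) in each of the 12 libraries by group, with points for libraries and bars for the mean and SD of 3. The 3 Dib1-4h libraries lie at 1.60% to 1.97% and the 3 Snu114-4h libraries at 0.510% to 0.554%, and both strains are higher at 8 h.

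Intron by intron, the reads over an intron were set against the reads of its host gene as a log2 ratio, which needs no scale between libraries. Of 259 hosts with a mean of at least 20 gene reads, the ratio rose from 4 to 8 h for 170 in the Dib1 strain (65.6% of those tested) and for 217 in the Snu114 strain (83.8%). No ratio fell beyond the threshold in either strain (limma, adjusted p at 0.05), and 179 and 217 passed at an unadjusted p of 0.05 in either direction. The median change was 0.86 in the Dib1 strain and 1.92 in the Snu114 strain. A rise in both strains was called for 163 introns, which are 95.9% of the Dib1 calls and 75.1% of the Snu114 calls. The difference between the changes was called higher in the Snu114 strain for 139 introns (53.7%) and lower for 1 (0.386%), with a median difference of 1.00. Of the 163 shared rises, 100 carried a called difference and 63 did not. A further 39 introns rose in the Snu114 strain with the difference called and the Dib1 change not called, with a median change of 2.08 against 0.42. Another 15 were called in the Snu114 strain and 6 in the Dib1 strain with no call for the difference, so they are not assigned to one strain. Without the 2 libraries that stand apart the difference was called higher for 152 and lower for 1, and 130 of the 139 were among them.

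The direction depended on the scale, and most introns started lower in the Snu114 strain. The median intron had reads equal to 18.4% of its host's gene reads in Dib1-4h and 32% in Dib1-8h, against 3.72% in Snu114-4h and 17.2% in Snu114-8h. In percentage points, tested by the same limma contrast over 258 introns, the difference was called higher in the Snu114 strain for 5 introns and lower for 35, with a median of −1.68 points. Of the 139 introns called higher on the log2 scale, 68 had a difference above 0 in points and 71 below 0, with 5 called higher and 20 called lower. The ordering of the 4 group means was alike across introns. For 147 of the 258 the order from low to high was Snu114-4h, Snu114-8h, Dib1-4h, Dib1-8h, and for 88 the middle groups were exchanged. Snu114-4h was the lowest group for 242 introns and Dib1-8h the highest for 240. Gene reads can include intron reads, so a percent is not a share of unspliced molecules and can exceed 100.

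**Figure D2:**
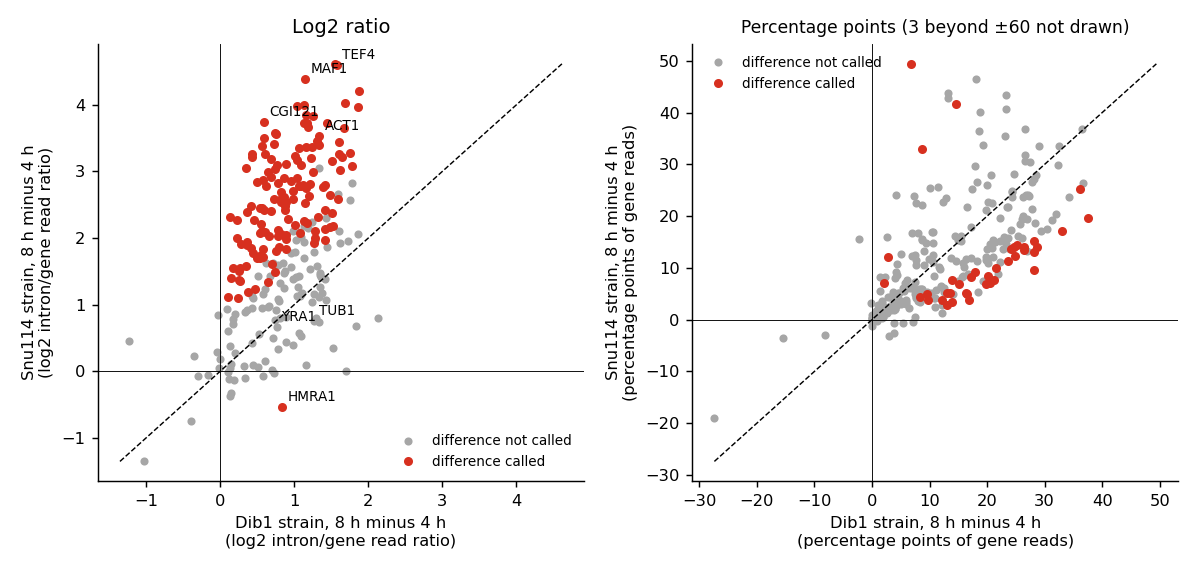
Change from 4 to 8 h of each intron in the Dib1 strain (horizontal) against the Snu114 strain (vertical), as the log2 ratio on the left and in percentage points on the right, where 3 introns beyond 60 points either way are not drawn. Red points have a called strain difference, 140 on the left and 40 on the right, and the dashed line marks equal change: most red points lie above it on the left, and 35 of 40 lie below it on the right.

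Intron reads were also scaled with the gene table's size factors, which gives a level that does not divide by the host. On that scale 116 of 253 introns rose in the Dib1 strain (45.8%), and 194 rose in the Snu114 strain (76.7%). A rise in both strains was called for 104 (41.1%). The difference was higher in the Snu114 strain for 106 (41.9%) and lower for 2 (0.791%), with a median of 0.78. The lower calls were YRA1 (−1.35, limma adjusted p = 0.00731) and MND1 (−2.25, limma adjusted p = 0.0105), and MND1 and YJR079W were the 2 introns whose level fell in the Snu114 strain. On the size factors of the intron tables themselves, which remove a change common to most introns, the split was 42 higher and 27 lower with a median of −0.09. The authors' deposited table of introns, on that second scale, lists 9 introns higher and 17 lower at 8 h in the Dib1 strain, and 76 higher and 69 lower in the Snu114 strain.

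TEF4, which makes a subunit of translation elongation factor 1B, was among the 4 introns with the largest log2 difference. Its intron stood at 4.77%, 4.82% and 3.27% of gene reads in Dib1-4h and at 13.6%, 13.6% and 10.7% in Dib1-8h. Snu114-4h had 0.198%, 0.210% and 0.152%, and Snu114-8h had 4.34%, 5.14% and 4.18%. Every 8 h library was above every 4 h library of its strain, and Snu114-8h reached the range of Dib1-4h. The log2 changes were 1.57 ± 0.19 (SE) and 4.61 ± 0.19, and their difference of 3.03 ± 0.27 had a limma adjusted p of 1.1e-05. In points the same difference was −3.99 (limma adjusted p = 0.042), so the Snu114 strain gained more in proportion and less in absolute share.

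MAF1 encodes the repressor of RNA polymerase III, and its intron showed the largest log2 difference of all. Its percents were 3.54, 7.14 and 6.52 in Dib1-4h, 14.5, 13.0 and 9.61 in Dib1-8h, 0.638, 0.223 and 0.148 in Snu114-4h, and 7.01, 7.60 and 4.89 in Snu114-8h. The spread between replicates was wide at 4 h in both strains. The difference was 3.24 ± 0.61 (limma adjusted p = 0.000732) on the log2 scale and −0.469 points. CGI121, a member of the KEOPS complex that modifies tRNA, went from 25.9%, 19.6% and 17.9% to 32.2%, 29.4% and 33.3% in the Dib1 strain and from 1.30%, 1.12% and 1.38% to 13.9%, 17.3% and 23.4% in the Snu114 strain. Its groups did not overlap in either strain, and Snu114-8h replicate 3 alone among the Snu114-strain libraries reached the range of Dib1-4h. The difference was 3.15 ± 0.30 (limma adjusted p = 1.4e-05). RPS4B, for a protein of the small ribosomal subunit, had a difference of 3.07 ± 0.39, from percents of 8.16 to 13.1, 27.0 to 29.5, 0.359 to 0.586 and 8.65 to 17.3 in the same order of groups. Reads of near-identical paralogs such as RPS4A and RPS4B can be split between copies in counting, so values of such pairs are uncertain.

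The other 6 introns of the 10 with the largest difference were RPL31A (2.95), RPL23B (2.90), RPS4A (2.87), RPS21A (2.84), NSP1 (2.83) and RPL43B (2.82), all for ribosomal proteins except NSP1, which makes a nuclear pore protein. RPL23B, RPS21A and RPL43B were called in the Snu114 strain with no call in the Dib1 strain on the log2 scale. In points the Dib1 rise was called for RPL43B (23.2, limma adjusted p = 0.0125) and not for RPL23B or RPS21A. RPL23B was at 59.0% in Dib1-4h replicate 1, a library that stands apart. It was at 22.6% and 23.9% in replicates 2 and 3, and at 46.8% to 48.8% in Dib1-8h. RPS21A shows how the libraries that stand apart weighed on single introns. It was at 87.3% in Dib1-4h replicate 1 and at 45.5% and 51.6% in replicates 2 and 3, and at 83.8% in Snu114-8h replicate 3 against 34.0% and 37.3%. Without those 2 libraries its difference was 2.14 in place of 2.84.

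ACT1, for actin, went from 11.1%, 6.41% and 6.92% to 19.7%, 18.5% and 22% in the Dib1 strain. Snu114-4h had 0.660%, 0.510% and 0.526%, and Snu114-8h had 5.04%, 5.49% and 10.1%. The times did not overlap in either strain, and the replicate highest at Dib1-4h and the one highest at Snu114-8h were the libraries that stand apart. The log2 changes were 1.34 and 3.54, and the difference was 2.20 ± 0.38 (limma adjusted p = 0.0005), or 1.64 without those 2 libraries. In points the difference was −5.60, with a limma adjusted p of 0.127.

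SUS1, which belongs to the SAGA and TREX-2 complexes and carries 2 introns, was among the 5 introns that gained more in the Snu114 strain on both scales. It rose in the Snu114 strain from 24.1%, 30.2% and 24.3% to 65.4%, 68.3% and 69.5%. In the Dib1 strain it was already at 77.3%, 74% and 78.5% at 4 h and reached 91.2%, 88.8% and 93.9%, a change that missed the threshold on the log2 scale (0.25, limma adjusted p = 0.1). The difference was 1.13 ± 0.19 on the log2 scale and 26.9 points (limma adjusted p = 0.0146). The others, named after their values were seen, were NBL1, for a protein of the chromosomal passenger complex, PTC7, for a mitochondrial protein phosphatase, and the less studied YBL059W and YNL050C. NBL1 had 61.7% to 73.5% and 70.0% to 81.7% in the Dib1 strain against 11.5% to 13.6% and 59.4% to 66.0% in the Snu114 strain. In points SUS1 rose by 14.7 in the Dib1 strain (limma adjusted p = 0.0103) and by 41.6 in the Snu114 strain, and YBL059W by 8.74 and 33.0. The Dib1 change in points was not called for NBL1 (6.75), PTC7 (2.77) and YNL050C (2.02), which rose by 49.4, 12.1 and 7.17 points in the Snu114 strain.

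Several introns had no called difference, among them introns described as controlling their own host. The YRA1 intron, in the gene of an mRNA export factor that limits its own splicing, was at 22.8%, 23.1% and 21.1% in Dib1-4h and 37.7%, 38.9% and 37.2% in Dib1-8h. Snu114-4h had 13.7%, 15% and 11.8%, and Snu114-8h had 23.2%, 25.3% and 16.6%. The groups did not overlap in either strain, and the changes of 0.76 and 0.67 differed by −0.09 ± 0.26 (limma adjusted p = 0.78). RPS14B, whose protein binds its own precursor, changed by 0.75 and 0.93 (difference 0.17 ± 0.20), and RPL28 changed by 1.04 and 1.14 (0.10 ± 0.27). The alpha-tubulin genes TUB1 and TUB3 rose in both strains, with differences of −0.50 ± 0.30 and −0.07 ± 0.29. Of the paralogs RPL22A and RPL22B, RPL22A had a called difference of 0.86 ± 0.29 (limma adjusted p = 0.024, and 0.0678 without the 2 libraries) and RPL22B was at −0.21 ± 0.35. In points RPL22A was called lower, at −8.61 (limma adjusted p = 0.0263), against its higher call on the log2 scale. RPL22B was at −8.44 points and not called (limma adjusted p = 0.534), and the paralogs were not tested against each other. RPL30 and DBP2 were not called for the difference (0.65 ± 0.57 and 0.58 ± 0.61), with replicates too spread to place them. MUD1, for a protein of the U1 snRNP, and SAC6, for the actin bundler fimbrin, were called higher at 1.82 ± 0.36 and 2.11 ± 0.67.

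**Figure D3:**
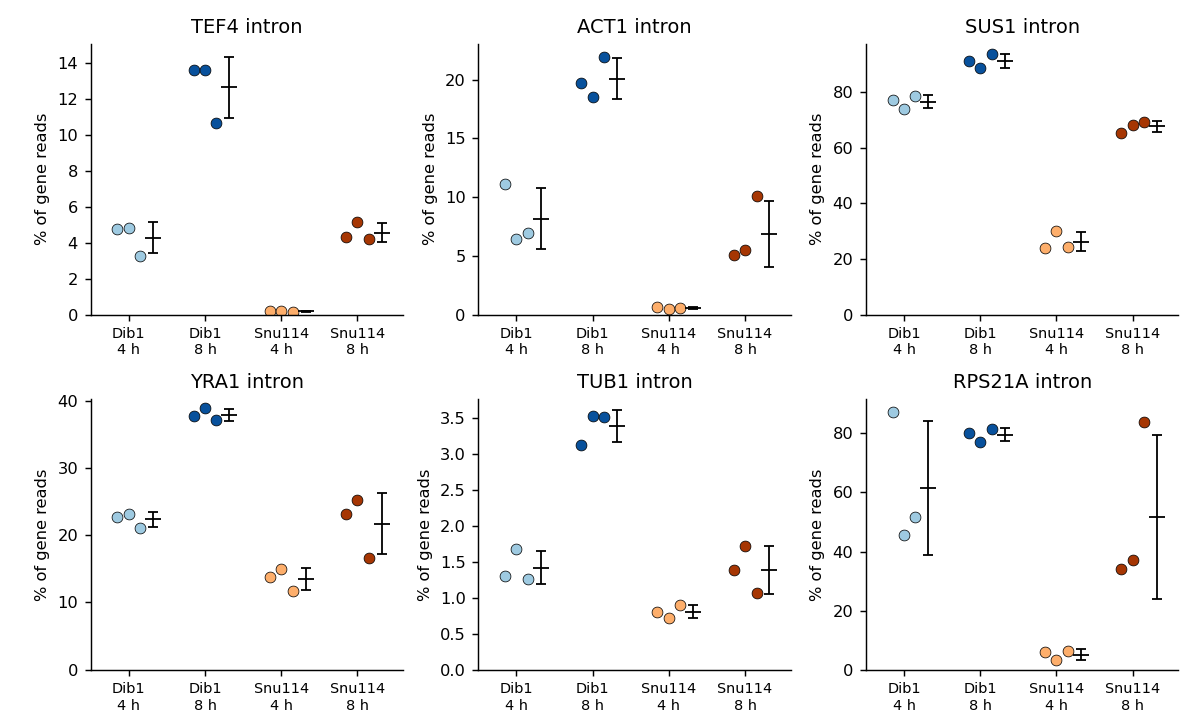
Intron reads as a percent of the host's gene reads (vertical axes, from 0) in each library for 6 introns, with mean and SD of 3 per group. TEF4, ACT1, SUS1 and RPS21A have a called strain difference, and YRA1 and TUB1 do not: in TEF4 the Snu114-4h libraries lie at 0.152% to 0.210% and in YRA1 at 11.8% to 15%.

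At the low end of the ranking, only HMRA1 passed the test (−1.36 ± 0.49, limma adjusted p = 0.031). It is the silent copy of the a1 gene, nearly identical to the copy at the mating-type locus, and its gene reads were 0 or 1 in every Snu114-strain library. Its value there rests on the 0.5 added to each read count and gives no change to compare. UBC5 (−1.32 ± 1.11), PMI40 (−1.15 ± 0.96), UBC4 (−0.75), YDR381C-A (−0.68), CMC4 (−0.65), YPR098C (−0.59), RPS17A (−0.56) and YBR219C (−0.50) were the next lowest and were not called on the log2 scale. In points YPR098C was called lower in the Snu114 strain, by −10.2 points (limma adjusted p = 0.009).

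By kind of host, the difference was called higher for 32 of 53 introns of large-subunit ribosomal protein genes (median 1.17) and 25 of 36 of the small subunit (median 1.08). It was called for 82 of 170 other introns (median 0.96), beside 139 of 259 and 1.00 over all. Introns of RNA processing genes gave 12 of 20 (median 1.19), those of actin, tubulin and cell cycle genes 6 of 15 (0.41), hosts of intronic snoRNAs 5 of 8 (0.91), and hosts with 2 introns 5 of 8 with 1 lower (1.24). Of 12 introns of meiotic genes, some of which have regulated splicing, 0 were called for the difference in the log2 ratio by limma. For that difference 0 also passed at an unadjusted p of 0.05, and 1 of the 12 rose in the Snu114 strain. Their median difference was −0.35. These counts are for the ratio, and on the level scale the MND1 intron was called lower, as given above. In points the ribosomal groups went the other way, with 16 of 53 and 9 of 36 called lower in the Snu114 strain and none higher. The other introns had 10 of 169 called lower and 5 higher (median −0.48 points). Over all 258 introns, 35 were called lower and 5 higher (median −1.68 points).

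Splice-site letters and lengths were set beside the call as a description, with no test. Of those with a position in the genome, the 139 called higher had a median length of 139 bases and the 116 not called 145. The 5′ splice site GTATGT was present in 77.0% and 70.7%, and TACTAAC in 85.6% and 77.6%. The starting level, which enters the ratio itself, had a median of 3.03% of gene reads in Snu114-4h for those called and 5.49% for those not called. In Dib1-4h it ran the other way, with 20.7% and 14.9%. Ribosomal protein genes made up 41.0% and 27.6%. Across the 242 introns averaging 20 or more intron reads, the changes in the strains had a correlation of 0.46, a description only, since introns of a library share its depth and RNA.

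Among 6462 genes with reads, the strain difference was called for 0 higher and 1 lower (0.0155%) by limma. At an unadjusted p of 0.05, 684 genes passed. edgeR called 2 on the same reads and DESeq2 162, of which 67 were higher and 95 lower. In the Dib1 strain 478 genes rose (7.4%) and 308 fell (4.77%), whereas in the Snu114 strain 78 rose (1.21%) and 42 fell (0.65%). The counts of the strains are not a comparison of their changes, which the difference tests directly. A shared rise was called for 48 genes (0.743%) and a shared fall for 26 (0.402%), in all 9.41% of the Dib1 calls and 61.7% of the Snu114 calls. Of the Dib1 calls 88.3% had the same sign in the Snu114 strain, and of the Snu114 calls 94.2% had the same sign in the Dib1 strain, beside 62.4% of all genes. No gene was called in one strain with the difference called and the other strain not called (limma), against 1 gene, SER3, by edgeR and 110 Dib1 and 23 Snu114 genes by DESeq2, so 712 Dib1 calls and 46 Snu114 calls are not assigned to one strain.

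These counts moved with single libraries. Without the 2 libraries that stand apart, 682 genes rose and 546 fell in the Dib1 strain, 119 rose and 89 fell in the Snu114 strain, 152 changes were shared, and 21 differences were called. Of the 74 shared changes 68 were among the 152. Leaving out 1 library at a time gave 312 to 978 calls in the Dib1 strain and 20 to 227 in the Snu114 strain. The Dib1 calls fell to 312, 318 and 511 without replicate 1, 2 or 3 of Dib1-8h. The Snu114 calls were 20 without Snu114-8h replicate 2, 23 without Snu114-4h replicate 1, 42 without Snu114-4h replicate 2, 61 without Snu114-8h replicate 1, 71 and 73 without Dib1-8h replicate 2 and 1, and 227 without Dib1-4h replicate 1. The shared changes then ranged from 17, without Snu114-8h replicate 2, to 134, without Dib1-4h replicate 1. They were 19 and 30 without Snu114-4h replicate 1 or 2, 35 without Snu114-8h replicate 1, 35, 33 and 43 without Dib1-8h replicate 1, 2 or 3, and 49 without Dib1-4h replicate 3.

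**Figure D4:**
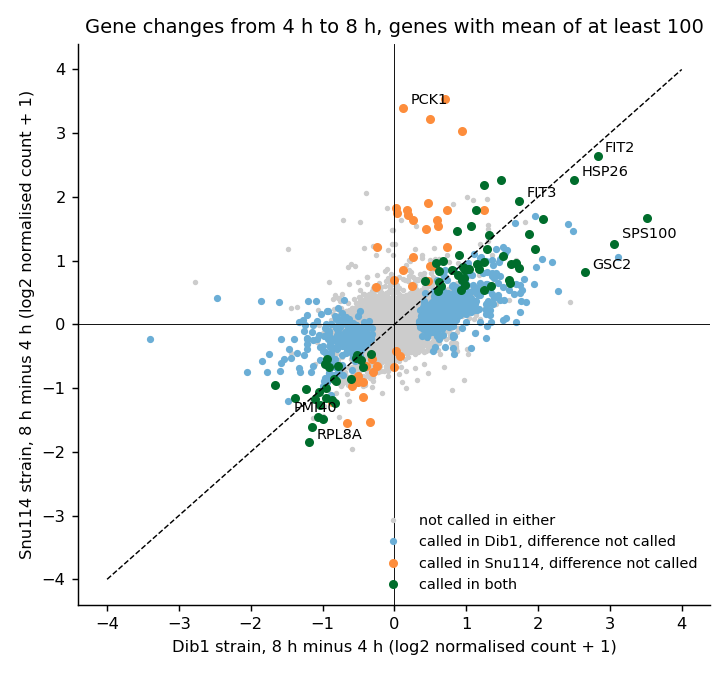
Log2 change from 4 to 8 h in the Dib1 strain (horizontal) against the Snu114 strain (vertical) for the 5395 genes with a mean of at least 100 normalised counts. Green points are genes called in both strains and the dashed line marks equal change: the points spread along it with a correlation across genes of 0.50, a description only.

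GSC2 (YGR032W, chrVII:548264-553951 in R64) encodes a catalytic subunit of the glucan synthase that builds the cell wall, the form made under stress and in sporulation. It had 3058, 3293 and 3147 normalised counts in Dib1-4h and 19854, 20866 and 18913 in Dib1-8h. Snu114-4h had 2377, 2632 and 2334, and Snu114-8h had 4628, 4312 and 4027. The strains started close to each other and both rose, but every Dib1-8h library was far above every Snu114-8h library. The log2 changes were 2.65 ± 0.10 (SE) and 0.82 ± 0.10 (limma adjusted p = 0.0031), and the difference was −1.83 ± 0.14 (limma adjusted p = 0.000189). GSC2 thus belongs to the shared rises and differs in size. The call held without any 1 library, but not without replicate 1 of all 4 groups (limma adjusted p = 0.0708) or replicate 2 of all 4 (0.415). Without all replicates 1 the 1 gene called was PCK1 instead. Single left-out libraries added calls chosen here after their values were seen, YPR145C-A (1.75) without Dib1-4h replicate 2, and PCK1 (3.96) and ECM13 (1.81) without Snu114-8h replicate 1.

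**Figure D5:**
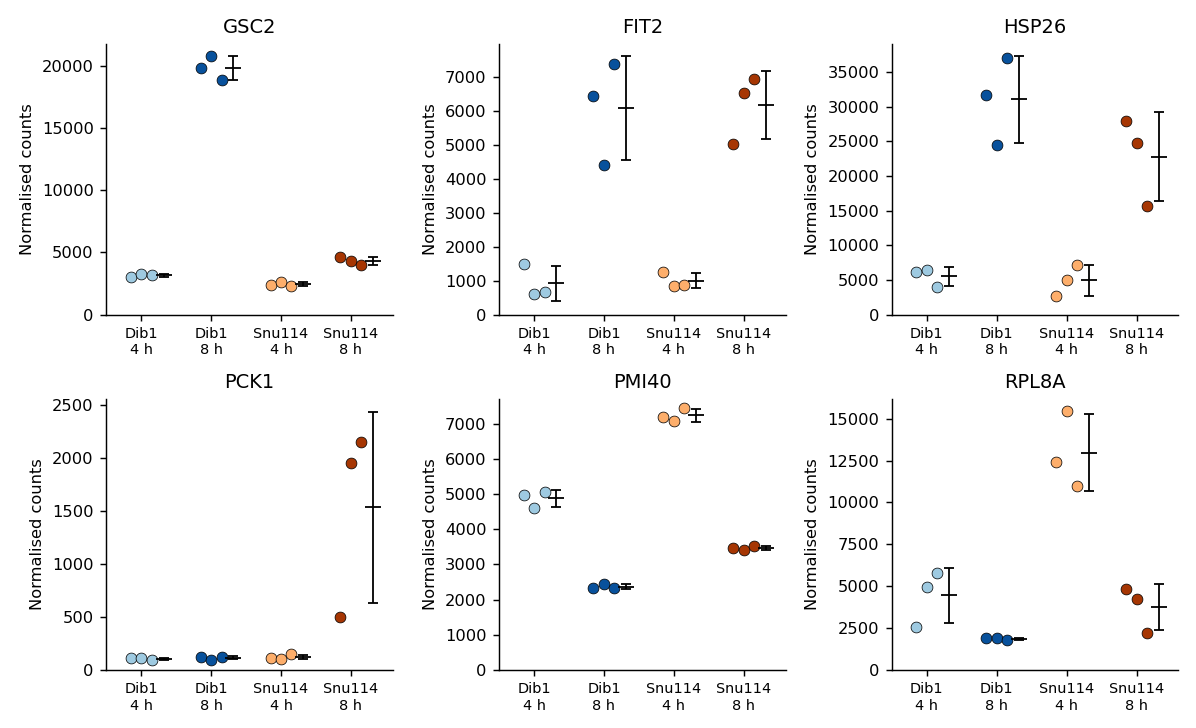
Normalised counts (vertical axes, from 0) in each library for 6 genes, with mean and SD of 3 per group. GSC2 is the 1 gene with a strain difference called by limma, FIT2 and HSP26 rose and PMI40 and RPL8A fell in both strains, and PCK1 rose in the Snu114 strain, with 104 to 144 at 4 h and 499 to 2148 at 8 h.

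Genes of iron uptake led the shared rises. FIT2 and FIT3 make cell wall mannoproteins that retain siderophore iron. FIT2 rose from 1501, 593 and 650 to 6443, 4402 and 7387 normalised counts in the Dib1 strain and from 1243, 846 and 874 to 5028, 6516 and 6945 in the Snu114 strain. The times did not overlap, and the strains covered the same range at each time. The changes of 2.83 ± 0.32 and 2.65 ± 0.32 differed by −0.18 ± 0.46 (limma adjusted p = 0.89). FIT3 rose by 1.73 and 1.94, and TIS11, whose protein directs decay of mRNAs for iron-using proteins, by 2.06 and 1.66. The siderophore transporters SIT1 (1.88 and 1.43) and ARN1 (1.51 and 1.08) and the copper transporter CCC2 (1.73 and 0.88) were also called in both. Of the 32 genes of the iron list, 16 rose and 1 fell in the Dib1 strain and 7 rose in the Snu114 strain, beside 7.4% and 1.21% of all genes that rose, and 6 of these were shared. The list's median changes were 0.31 and 0.19, beside −0.00 and 0.00 over all genes. For the strain difference over the 32 genes, limma and edgeR called 0. DESeq2 called 1 higher and 3 lower, beside 67 and 95 among all genes. At an unadjusted p of 0.05, 3 were higher and 8 lower, beside 315 and 369 among all genes. Without the 2 libraries that stand apart the difference for CCC2 was called (−1.20, limma adjusted p = 0.0475). The 1 fall was FET4, a low-affinity iron transporter, which had 6185 to 10610 normalised counts in Dib1-4h and 2872 to 4104 in Dib1-8h, with no call in the Snu114 strain (0.06). FET3, the multicopper oxidase of high-affinity uptake, rose in the Dib1 strain by 1.44 and was at 0.47 in the Snu114 strain, a difference of −0.97 ± 0.22 that was not called (limma adjusted p = 0.15).

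The promoters of FIT2 and FIT3 are shown because the pair led this group. TGCACCC, the core of the element that the iron regulators Aft1 and Aft2 bind, is in capitals on either strand, as TGCACCC or GGGTGCA. Each is the 300 bases before the start codon, read 5′ to 3′ on the gene's strand from R64 (RefSeq).
FIT2, chrXV:1059231-1059530, plus strand: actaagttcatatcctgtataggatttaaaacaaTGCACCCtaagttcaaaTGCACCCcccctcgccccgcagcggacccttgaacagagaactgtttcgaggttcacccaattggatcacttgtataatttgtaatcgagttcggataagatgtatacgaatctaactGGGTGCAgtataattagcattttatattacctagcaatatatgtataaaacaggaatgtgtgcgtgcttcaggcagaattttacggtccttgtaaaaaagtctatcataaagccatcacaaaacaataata
FIT3, chrXV:1061056-1061355, minus strand: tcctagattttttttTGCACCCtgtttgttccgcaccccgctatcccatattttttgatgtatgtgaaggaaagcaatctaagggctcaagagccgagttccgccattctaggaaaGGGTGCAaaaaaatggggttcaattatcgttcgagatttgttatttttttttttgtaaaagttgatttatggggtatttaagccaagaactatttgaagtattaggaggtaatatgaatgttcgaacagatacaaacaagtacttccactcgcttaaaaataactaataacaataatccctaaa
The FIT2 window held 3 copies and the FIT3 window 2. The motif stood on either strand in 16 of 32 windows of the iron list and in 80 of 6026 windows of all genes (1.33%). It was present at FET4, which fell in the Dib1 strain, as well as at FIT2, FIT3, SIT1, ARN1, CCC2 and TIS11.

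Stress and reserve genes followed. HSP26, a small heat shock protein, rose from 6160, 6467 and 3955 to 31742, 24508 and 36968 normalised counts in the Dib1 strain and from 2718, 4996 and 7124 to 27916, 24812 and 15660 in the Snu114 strain. The times did not overlap in either strain. The changes were 2.50 ± 0.34 and 2.27 ± 0.34, and the difference of −0.23 ± 0.48 was not called (limma adjusted p = 0.875). HSP42, another small heat shock protein, rose by 1.29 and 1.18. HXT5, a hexose transporter made in slow growth, rose by 1.48 and 2.27, and CIT2, the peroxisomal citrate synthase, by 1.31 and 1.41. SPS100, a spore wall gene, had 63.0 to 84.4 normalised counts in Dib1-4h and 737 to 987 in Dib1-8h, against 46.9 to 75.9 in Snu114-4h and 156 to 213 in Snu114-8h, and rose in both. Its changes of 3.52 and 1.66 differed by −1.85 ± 0.32, just short of the threshold (limma adjusted p = 0.0548). PHM7 (3.06 and 1.27) and MOH1 (1.25 and 2.19) were also called in both. In the general stress and reserve carbohydrate list of 38 genes, 13 rose in the Dib1 strain and 4 in the Snu114 strain, beside 7.4% and 1.21% of all genes. Only 1 of the 38 was a shared rise, beside 0.743% of all genes. The medians were 0.68 and 0.46. Without the 2 libraries that stand apart 13 and 2 rose, beside 682 and 119 among all genes.

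Ribosomal protein genes made up most of the named shared falls. RPL8A went from 2579, 4969 and 5765 to 1869, 1890 and 1774 normalised counts in the Dib1 strain and from 12434, 15484 and 10980 to 4831, 4215 and 2213 in the Snu114 strain. The lowest 4 h library in the Dib1 strain was replicate 1, and the lowest 8 h library in the Snu114 strain was replicate 3, the 2 libraries that stand apart. The changes were −1.19 ± 0.32 and −1.85 ± 0.32, and their difference of −0.66 was not called. RPL31B, RPS26B, RPS10B, RPL16A, RPS22B and RPS9B fell, with log2 changes between −0.96 and −1.38 in the Dib1 strain and between −1.01 and −1.48 in the Snu114 strain. Of 89 ribosomal protein genes with a counted intron, 26 fell and 1 rose in the Dib1 strain (median −0.59) and 12 fell and 1 rose in the Snu114 strain (median −0.72), beside 4.77% and 0.65% of all genes that fell, with 12 shared changes. Of 48 ribosomal protein genes with no intron, 4 fell in each strain (medians −0.50 and −0.59). Without the 2 libraries, 58 of the 89 and 36 of the 48 fell in the Dib1 strain, while the Snu114 strain had 23 and 6. Among all genes 546 then fell in the Dib1 strain and 89 in the Snu114 strain. The 1 rise in both was RPS9A, named after its values were seen, with 10687 to 12777 normalised counts in Dib1-4h, 15785 to 16163 in Dib1-8h, 6177 to 7273 in Snu114-4h and 10129 to 11479 in Snu114-8h. Its paralog RPS9B fell in both.

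PMI40, for the isomerase that makes mannose 6-phosphate for the cell wall, had the smallest standard errors among the shared falls named here. It had 4990, 4608 and 5066 normalised counts in Dib1-4h and 2343, 2439 and 2316 in Dib1-8h. Snu114-4h had 7196, 7101 and 7453, and Snu114-8h had 3472, 3425 and 3528. The changes of −1.05 ± 0.09 and −1.06 ± 0.09 differed by −0.02 ± 0.12 (limma adjusted p = 0.97). CIN2, for a tubulin folding factor, fell by 1.15 and 1.60 on the log2 scale and CYC1, for cytochrome c, by 1.11 and 1.17. PMI40 and CIN2 both hold an intron.

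Of 36 genes for the proteasome and ubiquitin, 16 rose in the Dib1 strain (median 0.56), beside 7.4% of all genes, with examples in UBI4, the polyubiquitin gene (1.51), and PRE9, a core subunit (0.81). In the Snu114 strain, where 1.21% of all genes rose, 0 passed by limma (median 0.21), with 3 rises and 1 fall at an unadjusted p of 0.05, 1 rise by edgeR and 2 by DESeq2. The difference was not called for any of the 36 by limma or edgeR. At an unadjusted p of 0.05 it was lower for 6, and DESeq2 called 2 lower. Without the 2 libraries that stand apart 27 rose in the Dib1 strain and 2 in the Snu114 strain, beside 682 and 119 among all genes. UBI4 itself moved by 1.21 in the Snu114 strain (limma adjusted p = 0.06), from 2211 to 3174 normalised counts at 4 h to 8367, 8140 and 3876 at 8 h. The third of these is the library that stands apart.

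In the cell wall list of 42 genes, 12 rose in the Dib1 strain (median 0.48) and 2 in the Snu114 strain (0.09), beside 7.4% and 1.21% of all genes. The difference was called lower for 1 member, GSC2, by limma and by edgeR, and for 6 members by DESeq2. YGP1, a secreted glycoprotein made on nutrient limitation, rose by 1.39 in the Dib1 strain and was at 0.41 in the Snu114 strain. In the pheromone response list of 27 genes, 2 rose and 8 fell in the Dib1 strain (median −0.43), beside 7.4% and 4.77% of all genes. FUS1, needed for cell fusion in mating, went from 779, 956 and 994 to 465, 461 and 655. In the Snu114 strain 0 of the 27 were called by limma, edgeR or DESeq2, with 0 at an unadjusted p of 0.05 and a median of 0.03. The difference for FUS1 was 0.92 ± 0.25 (limma adjusted p = 0.204). Over the 27 genes, limma and edgeR called 0 differences and DESeq2 called 5 higher, beside 67 higher among all genes. At an unadjusted p of 0.05, 7 were higher and 1 lower, beside 315 and 369 among all genes. The mating types of the strains differed by their markers, and the part of that in these values was not tested. In the phosphate list of 24 genes, 2 rose and 7 fell in the Dib1 strain (median −0.36), beside 7.4% and 4.77% of all genes, and 0 passed in the Snu114 strain by limma or edgeR, with 2 rises and 1 fall at an unadjusted p of 0.05 and 2 rises by DESeq2. PHM6 had 1258 to 3071 normalised counts in Dib1-4h and 110 to 460 in Dib1-8h, and in the Snu114 strain its groups overlapped. For the strain difference over the 24 genes, limma and edgeR called 0 and DESeq2 called 2 higher. At an unadjusted p of 0.05, 10 were higher and 1 lower, beside 315 and 369 among all genes. Of 49 Gcn4 targets of amino acid synthesis, 7 fell in the Dib1 strain and 3 in the Snu114 strain, beside 4.77% and 0.65% of all genes, and 2 were shared. One of these was HIS1, for the first enzyme of histidine synthesis, which fell by 1.66 and 0.95 on the log2 scale.

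A smaller set was called in the Snu114 strain alone. PCK1, for the key enzyme of gluconeogenesis, was at 110, 108 and 91.0 normalised counts in Dib1-4h and 122, 96.4 and 119 in Dib1-8h. In the Snu114 strain it went from 115, 104 and 144 to 499, 1955 and 2148. It was thus flat in the Dib1 strain and higher in every Snu114-8h library, with replicate 1 well below replicates 2 and 3. The Snu114 change was 3.40 ± 0.44 (limma adjusted p = 0.0039), the Dib1 change 0.12, and the difference 3.28 ± 0.62 missed the threshold (limma adjusted p = 0.079). Without Snu114-8h replicate 1, the lowest of its group, the difference was 3.96 (limma adjusted p = 0.000197). ADY2, an acetate transporter, changed by 3.22 in the Snu114 strain and SIP18, a desiccation protein, by 3.04. SSA4, a stress-induced chaperone, changed by 1.64. None of these differences was called by limma (adjusted p = 0.234, 0.249 and 0.446). In the list of glucose-repressed genes, 3 of 26 rose in the Dib1 strain (median 0.03) and 6 in the Snu114 strain (median 0.67), beside 7.4% and 1.21% of all genes, and 2 of these were shared.

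Genes of the splicing machinery were mostly not called. Of 31 U5 and tri-snRNP genes, 3 rose in the Dib1 strain, close to the 7.4% of all genes. In the Snu114 strain 0 were called by limma or edgeR, with 3 rises and 1 fall at an unadjusted p of 0.05 and 2 rises by DESeq2. Without the 2 libraries that stand apart 5 rose and 2 fell in the Dib1 strain, beside 682 and 546 of all genes. In the Snu114 strain 1 then rose, beside 119 of all genes. PRP31, a tri-snRNP gene named after its values were seen, then had a called difference of 0.93 (limma adjusted p = 0.0475). With all libraries its difference was 0.67 (limma adjusted p = 0.254). PRP8, the core protein of the spliceosome, rose by 1.29 in the Dib1 strain and was at 0.82 in the Snu114 strain (limma adjusted p = 0.083). BRR2, a helicase of the same particle, rose by 0.85 and was at 0.47. Both genes are long, and length moved with the Dib1 change. Of 196 genes of at least 4000 bases, 99 rose and 1 fell in the Dib1 strain (median 0.53), and 10 rose and 1 fell in the Snu114 strain (median 0.19), beside 7.4% and 1.21% of all genes that rose. The median log2 value of long minus other genes, centred over libraries, was −0.43 to −0.13 in Dib1-4h and 0.23 to 0.33 in Dib1-8h. It was −0.20 to −0.02 in Snu114-4h and 0.02 to 0.17 in Snu114-8h. After removal of each library's trend with gene length, 31 long genes rose and 9 fell in the Dib1 strain (median 0.09). Among all genes 427 then rose and 291 fell in that strain. The difference for GSC2, a long gene, was then −1.49 with a limma adjusted p of 0.0364. The part of RNA quality or library preparation in this trend was not tested.

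Without the 2 libraries that stand apart the difference was also called for SER3, YRA1, AAC3, NCB2, SSU1, HPF1 and YFR006W, which each had a limma adjusted p of 0.0548 with all libraries. The genes named in this paragraph were chosen after their values were seen, and SER3, YRA1 and AAC3 are given by library. With all libraries the log2 difference was −0.93 for NCB2, 1.00 for SSU1, −1.31 for HPF1 and 0.72 for YFR006W. SER3, for an enzyme of serine synthesis, had 932, 1027 and 1118 normalised counts in Dib1-4h and 2393, 2193 and 3006 in Dib1-8h. Snu114-4h had 1505, 1605 and 1443, and Snu114-8h had 1548, 1579 and 1359. The Dib1 groups did not overlap and the Snu114 groups did. Its difference was −1.32 ± 0.19 (limma adjusted p = 0.0548, and 0.0475 without the 2 libraries). YRA1 followed the same pattern, with 8190, 11096 and 10185 then 21398, 22157 and 20176 in the Dib1 strain and 11920, 12401 and 11390 then 11732, 11943 and 9080 in the Snu114 strain. Its gene reads thus rose by 1.12 in the Dib1 strain, while the difference for its intron percent, described above, was not called. AAC3, a mitochondrial ADP/ATP carrier used without oxygen, went the other way. It fell in the Dib1 strain from 413, 386 and 514 to 175, 188 and 194 and was at 367 to 409 and then 397 to 496 in the Snu114 strain, a difference of 1.37 ± 0.22. IRC13, a dubious open reading frame, had 4.28 to 11.9 normalised counts in Snu114-4h and 26.3 to 167 in Snu114-8h, with 84.0 to 157 throughout the Dib1 strain. Its limma adjusted p was 0.179 with all libraries and 0.0475 without the 2.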

How the data were processed

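Poly(A)-selected RNA was sequenced as stranded paired-end libraries, per the labels' protocols. Trimmomatic, STAR, HTSeq, DESeq2 and the sacCer3 build are named in the submitters' processing notes, and their versions and the strand setting of the counting are not given in the sources used here. The deposited values are a signal in normalised counts per gene or per intron, that is, reads divided by a size factor per library, with each strain's tables normalised separately, per the file headers and values. The authors' deposited tables also hold log2 fold changes and adjusted p-values, used only where named. Whole reads were recovered from the gene tables (100% of values at a tolerance of 0.001). Genes were tested as log2(value + 1) and introns as log2((intron + 0.5)/(gene + 0.5)) reads, where the host averaged 20 or more gene reads, or as a level where the intron averaged 5 or more reads. A log2 fold change with an added count understates changes of low genes. The fit used all 12 libraries with group means in limma 3.58.1 (trend, R 4.3.3), with Benjamini-Hochberg adjustment over all features and calls at 0.05. edgeR 4.0.16 and DESeq2 1.42.0 on recovered reads were alternatives, and so were other pseudocounts, filters and scales, a replicate block and left-out libraries. The steps were tested on simulated data. Exact permutation tests used scipy 1.17.1.

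The genes and lists were chosen with earlier results of these data known. Genes named are the called differences, the 10 largest shared rises and falls with a mean of at least 100, and up to 2 per list, direction and strain. Introns named are the 10 highest and 10 lowest differences among those averaging 20 or more intron reads and a set always described. Genes outside these rules are said to be so where they appear, or are members of a list named beside it. Of 6596 gene identifiers, 5914 were found in the R64 annotation. The planned test designs were kept, apart from an edgeR fit of intron reads that was not run.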

Additional observations from a re-analysis of the deposited data

Results flagged for a closer look

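Each result here was singled out because the change from 4 to 8 h differed between the strains by the limma contrast of the changes. The gene table gave 1 such gene, GSC2 at −1.83 on the log2 scale. The intron ratio gave 140 introns and the intron level 108. Among named introns the differences in the log2 ratio were 3.24 for MAF1, 3.15 for CGI121, 3.07 for RPS4B, 3.03 for TEF4, 2.95 for RPL31A, 2.90 for RPL23B, 2.87 for RPS4A, 2.84 for RPS21A, 2.83 for NSP1 and 2.82 for RPL43B. They were 2.20 for ACT1, 1.82 for MUD1, 0.86 for RPL22A, 1.13 for SUS1 and 2.11 for SAC6. HMRA1 stood at −1.36, a value that rests on the added 0.5 because its gene had 0 or 1 reads in each Snu114-strain library.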

How the results depend on the processing

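Among introns averaging 20 or more reads, 141 ratio differences were called against 140. The gene difference, 1 call, became 18 with a pseudocount of 5, 9 with a mean of at least 10, 2 by edgeR, 162 by DESeq2, 8 with the length trend removed and 21 without the 2 libraries that stand apart. DESeq2 called 1248 Dib1 and 401 Snu114 changes, 253 shared. Without those 2 libraries the counts were 1228, 208 and 152. They left 153 ratio differences, 194 Dib1 ratio changes and 145 level differences. Nothing in the labels ties replicate numbers to a shared culture or day. The numbers were not taken as pairs because 4 of 18 same-numbered pairs correlated at 0.1 or below, but 14 did so above 0.1, against 11 of 36 other pairs, and 8 of 12 libraries correlated best with their own number, a hint from the data of structure by number. With the replicate number as a block, 15 genes differed, 1094 and 222 changed and 142 were shared, and 141 introns differed by ratio and 115 by level. The intron ratio difference, 140 calls, became 40 on the linear percent scale and 98 with intron reads subtracted from gene reads. The subtraction leaves out hosts whose intron reads reached their gene reads in any library, so its set is smaller than 259. With it the median ratio change was 1.29 in the Dib1 strain and 2.18 in the Snu114 strain, against 0.86 and 1.92. The level difference, 108 calls, became 69 on the intron tables' own size factors. On the linear scale the difference turned to −0.469 points for MAF1, −6.92 for RPS4B, −3.99 for TEF4, −0.645 for RPL31A, −6.96 for RPS4A, −5.60 for ACT1, −8.61 for RPL22A and −1.45 for SAC6. The total share difference turned to −0.117 points without ribosomal protein introns and −0.0324 without the 2 libraries, and was 0.93 as log2. The cause was not tested.

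Leaving out 1 library, then 1 replicate number of all groups, gave 1 to 3 and 0 to 1 gene differences, 312 to 978 and 37 to 682 Dib1 changes, 20 to 227 and 0 to 141 Snu114 changes, and 17 to 134 and 0 to 77 shared changes. It gave 125 to 142 and 90 to 133 ratio differences, 136 to 180 and 94 to 158 Dib1 ratio changes, 209 to 222 and 202 to 216 Snu114 ratio changes, 95 to 116 and 68 to 101 level differences, and total share differences of 0.0502 to 0.233 and 0.0834 to 0.240 points. The planned edgeR fit of intron reads was not run.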
